A study of Mus musculus with 8 samples.

Results

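The cells described here are C1q-negative myeloid cells of large B16F10 melanomas: 256 cell barcodes among 28411 that lay within the quality limits and 41925 deposited in all. They were chosen by counts of unique molecular identifiers (UMIs), which number the captured RNA molecules of a cell. A member had 200 to 5000 genes, at most 7.5% mitochondrial UMIs, under 0.3% of its UMIs from the pigment genes Mlana, Pmel, Dct, Tyr and Tyrp1, and at least 4 UMIs over Lyz2, Fcer1g and Tyrobp. It also had under 3 UMIs over C1qa, C1qb and C1qc, 0 over the dendritic cell genes Fscn1, Ccr7, Ccl22, Flt3, Xcr1, Clec9a and Cd209a, 0 over the T and NK cell genes Cd3d, Cd3e, Cd3g and Nkg7, and under 10 over Col1a1, Col1a2, Col3a1 and Dcn. A further 310 cells met the same rule with at least 3 C1q UMIs, and these C1q-positive myeloid cells are the class most like the members.

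Whole tumours grown under the skin of the flank to a volume of 300 mm3 were dissociated, and each of 8 tumours gave 1 droplet-based single-cell library. The control hosts were Rosa26::CreERT2:Atf4 WT/WT mice (n = 4 tumours) and the others Rosa26::CreERT2:Atf4 fl/fl mice in which Atf4 had been deleted (Atf4 Δ/Δ, n = 4), all of them 12 weeks old by the labels and on a C57BL/6 background. Every host carried the tamoxifen-dependent Cre, which acts throughout the body, and every host received tamoxifen by oral gavage. Effects of Atf4 loss in the myeloid cells therefore cannot be told apart from effects of its loss in other host cells. The injected B16F10 cells, a mouse melanoma line, kept their own Atf4, and excision in the host was efficient but not complete. The libraries held 37283598 to 74942137 UMIs over 4231 to 8696 deposited barcodes.

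Lyz2 encodes lysozyme and is carried by monocytes, macrophages and neutrophils, while Fcer1g and Tyrobp encode the signalling adaptors that couple Fc, Trem and lectin receptors to Syk kinase in the same cells. The 3 C1q genes encode the chains of the first component of complement, which resident and tumour-associated macrophages make in large amounts and circulating monocytes make little of. Monocytes that enter a tumour carry Ly6c2 and the chemokine receptor Ccr2, and as they mature in the tissue they lose these and take up the lysosomal and lipid-handling genes of macrophages.

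The 256 members were spread unevenly over the tumours. Atf4 WT/WT tumours 1 to 4 held 14, 17, 13 and 73 members, and Atf4 Δ/Δ tumours 1 to 4 held 16, 16, 5 and 102. Tumour 4 of each genotype thus gave 175 of the 256, and Atf4 Δ/Δ tumour 3, with under 10 members, was left out of the fits and tests per tumour, unless stated, while counts pooled over all members include it. C1q-positive cells numbered 29, 6, 39 and 21 in Atf4 WT/WT tumours and 30, 124, 22 and 39 in Atf4 Δ/Δ tumours, so tumour 2 of the controls was left out of the comparison of the classes. Members had a median of 1097.5 UMIs (500 to 4149) and 664 genes, against 2543.5 UMIs in C1q-positive cells. Their median mitochondrial share lay between 2.75% and 3.72% in the 8 tumours. No doublets were removed, 13 members had over 2 times the median UMIs, and 0 member barcodes occurred in more than 1 library.

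Near the limits of the rule, 220 members had 0 C1q UMIs, 16 had 1 and 20 had 2, while 9 C1q-positive cells had 3 and 266 had 10 or more. At the lower limit of the gate, 11 members had 4 UMIs over Lyz2, Fcer1g and Tyrobp and 20 barcodes with 3 were left outside, against a median of 22 in members. The dendritic cell genes alone kept out 29 barcodes that otherwise met the rule, and the T and NK cell genes alone 6. Lyz2 was absent from 12 members, which were gated by Fcer1g and Tyrobp, and 218 carried all 3 gate genes. In 1 member, from Atf4 WT/WT tumour 3, 2300 of 4149 UMIs came from the immunoglobulin genes Igkc, Igha and Jchain. It put the summed B and plasma cell list at 118561 UMIs per 1000000 (CPM) in that tumour and at 0 to 49.6 CPM in the other 7, and results were also computed without it.

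The sex of the labels did not match the sex-linked genes in the 4 control libraries. In barcodes low in pigment genes, Atf4 WT/WT tumours 1 and 3, labelled male, held 189 and 203 Xist UMIs and 0 from the Y-linked genes Ddx3y, Eif2s3y, Kdm5d and Uty, whereas tumours 2 and 4, labelled female, held 0 Xist UMIs and 37 and 49 from the Y chromosome. The 4 Atf4 Δ/Δ libraries matched. Since all libraries of 1 genotype are affected, no comparison of genotypes can be made without them.

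Melanoma genes were measurable in the members, and whether they came from released RNA, doublets or ingested tumour material was not tested. Melanoma genes outside the rule, such as Slc45a2, Sox10 and Slc24a5, stood at 9.94% of their level in melanoma cells over all members, and at 7.03% in C1q-positive cells. By tumour the share was 16.7%, 12.1%, 6.29% and 13.03% in Atf4 WT/WT members and 16.5%, 5.06%, 6.27% and 7.0% in Atf4 Δ/Δ members. These shares rest on 7, 6, 3 and 26 UMIs and on 8, 3, 1 and 23 UMIs, so levels derived from them are rough. The level that melanoma RNA at these shares would give is printed beside the genes named for the genotype that melanoma cells carry in quantity.

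The label as myeloid cells with Lyz2 was borne out by genes outside the rule, and among these the markers of classical monocytes led. Chil3, a secreted chitinase-like protein of monocytes, had 793 UMIs in the 256 members, Thbs1 (thrombospondin) 539, Plac8 511, and Ccr2 and Ly6c2 195 each. Ly6c2 was found in 35.2% of members, 2.90% of C1q-positive cells and 0.0644% of melanoma cells, although melanoma cells were far deeper (median 8197 to 11501 UMIs by tumour). Its near-identical neighbour Ly6c1 had 1 UMI in members. Over the 12 monocyte markers, 220 members (85.9%) had at least 3 UMIs against 29.7% of C1q-positive cells. By tumour this share lay between 69.2% and 93.8% (median 81.2%, 7 tumours) in members and between 17.9% and 61.5% (median 24.1%) in C1q-positive cells, where the highest was Atf4 Δ/Δ tumour 4. When every cell was thinned to 1000 UMIs, which left 162 members and 289 C1q-positive cells, the shares were 80.2% and 14.5%.

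Macrophage markers were carried as well and are given with the comparison of the classes, and B and plasma cell genes came almost wholly from the 1 cell named above. Defining markers of several other cell types were at or near 0. Of 12 neutrophil genes 8 were seen, with 58 UMIs in all and Il1r2 the most abundant at 20; S100a8 had 2 UMIs, S100a9 had 1 and Cxcr2 had 0, and 3 members had 3 or more UMIs of the list. Erythroid and keratinocyte markers had 0 UMIs and Langerhans cell markers 2. Plasmacytoid dendritic cell genes had 215, of which 132 were Bst2, an interferon-induced gene that many cells carry. Mast cell and basophil markers had 2, T and NK cell markers outside the rule 9, endothelial markers 13 and fibroblast markers 18, of which 15 were Sparc, a gene melanoma cells also carry. Dendritic cell genes outside the rule had 82 UMIs over 6 of 10 genes, led by Cd24a with 29, and 11 members had at least 3. Nonclassical monocyte markers had 87 UMIs, led by Itgal, and 3 members had at least 3.

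**Figure D1:**
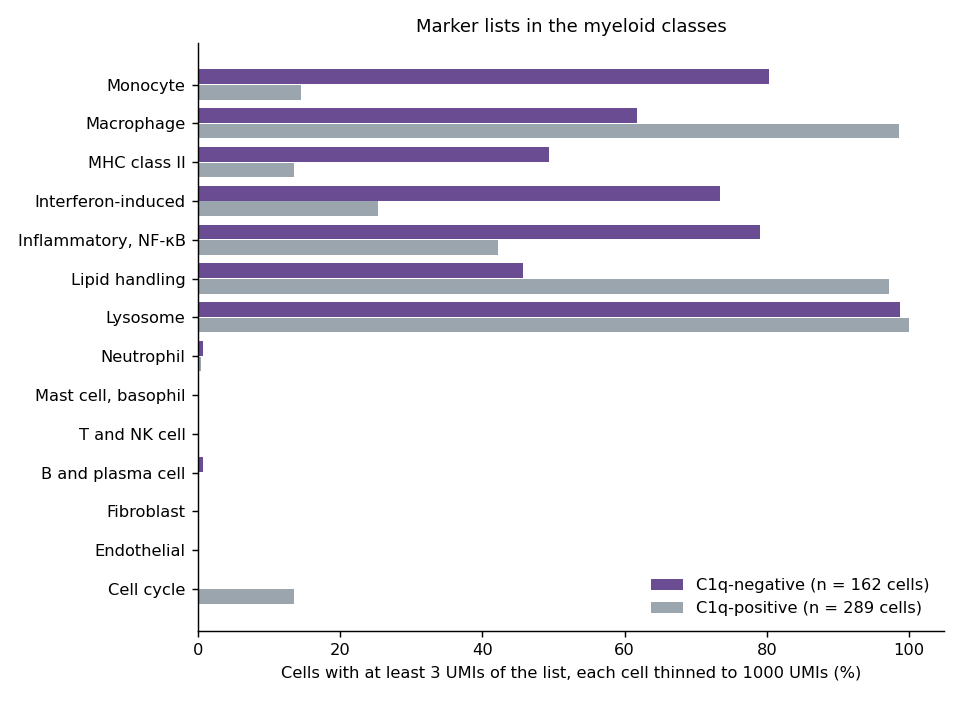
Share of cells with at least 3 UMIs over each marker list (horizontal axis, percent), after thinning each cell to 1000 UMIs, in 162 C1q-negative and 289 C1q-positive myeloid cells pooled over tumours. Monocyte markers reached 80.2% of C1q-negative and 14.5% of C1q-positive cells and lipid-handling genes 45.7% and 97.2%, while neutrophil, mast cell, T cell, fibroblast and endothelial lists stayed under 1% in both.

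Apart from ribosomal and mitochondrial genes, the most abundant transcripts in members were Fth1, the ferritin heavy chain (17554 ± 6100 CPM, SD, n = 7 tumours), Tmsb4x (15740 ± 3063 CPM), Lyz2 (13237 ± 2637) and Malat1 (12782 ± 2343). Igkc and Igha were among the 15 highest through the 1 cell of Atf4 WT/WT tumour 3 described above. Cd74, the invariant chain of MHC class II, stood at 4451 ± 1908 CPM and Lgals3, a galectin of phagocytes, at 4704 ± 1094.

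To ask where the members differ from the C1q-positive cells of the same tumours, UMIs were summed per tumour and class and compared in 6 tumours (Atf4 WT/WT 1, 3 and 4, Atf4 Δ/Δ 1, 2 and 4). The classes were divided by C1q counts in these same cells, so genes that accompany C1q separate with it, and the test asks only whether a difference recurs from tumour to tumour. Of 1126 genes tested, 152 were higher and 134 lower in members at an adjusted p under 0.05 (edgeR quasi-likelihood test with tumour as a block, Benjamini-Hochberg), 25.4% of all tested, 13.5% higher and 11.9% lower. DESeq2 called 228. Outside the rule's own genes the counts were 150 and 131, and 123 of those higher and 107 of those lower had the same sign in each of the 6 tumours. Without tumour 4 of both genotypes, which hold most members, 60 were higher and 58 lower. The rule's own genes are given as a description: Lyz2 averaged 12816 ± 2547 CPM in members and 10102 ± 2248 in C1q-positive cells (SD, n = 6), Fcer1g 2589 ± 384 and 2664 ± 321, Tyrobp 2332 ± 544 and 1543 ± 257, and C1qb 149 ± 109 and 4264 ± 804.

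Classical monocyte genes rose together in members. Of the 12 listed, 9 were tested and 8 were higher, with a median log2 fold change of 3.45 against -0.01 over all genes tested. Ly6c2 (chromosome 15, 75108158 to 75111970, GRCm38), a surface protein of inflammatory monocytes, lay at 277.9 to 999.8 CPM in members (median 572) and at 0 to 77.8 in C1q-positive cells (median 0). Its levels did not overlap between the classes, and the log2 fold change was 5.16 ± 0.51 (SE, edgeR adjusted p = 2.08e-06). Ly6c2 had 11 UMIs in all C1q-positive cells together, and Vcan, given below, had 12. Both entered the test only through the members, where they are high, so their fold changes are rough and describe where they were detected. Chil3 (chromosome 3, 106147554 to 106167564) lay at 765 to 5481 CPM in members (median 1912) and at 0 to 233 in C1q-positive cells (median 71.7), again without overlap (4.82 ± 0.31, adjusted p = 1.45e-08). Ccr2, the receptor through which monocytes leave the marrow, rose by 3.45 ± 0.34 on the log2 scale, Plac8 by 4.32 ± 0.37, Vcan (versican) by 3.99 ± 0.42, Thbs1 by 3.41 ± 0.27 and Ms4a4c by 3.17 ± 0.36. F13a1, a coagulation factor subunit that macrophages also make, was the exception at -0.53 ± 0.34 (adjusted p = 0.277); like Ier3, Zfp36, Csf1r and Aif1 below, it was singled out after its value was seen.

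**Figure D2:**
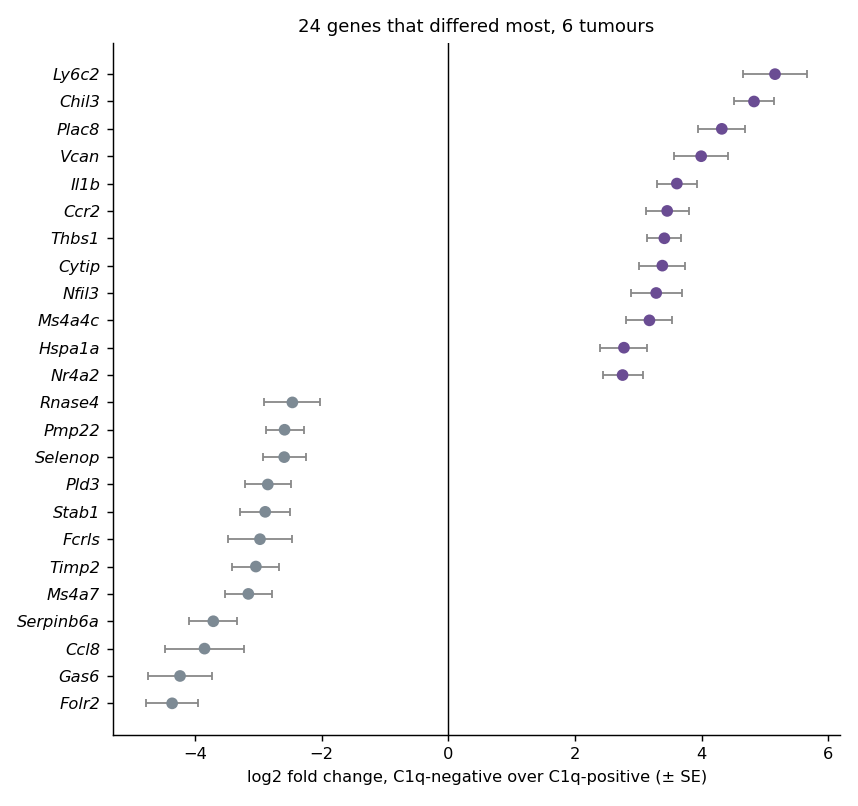
log2 fold change of C1q-negative over C1q-positive myeloid cells (horizontal axis; points, edgeR estimates over 6 tumours; bars, SE) for the 12 largest differences in each direction among called genes with the same sign in every tumour. Ly6c2 (5.16) and Chil3 (4.82) lie farthest to the right, Folr2 (-4.36) and Gas6 (-4.23) farthest to the left. Ly6c2 was close to absent from C1q-positive cells, and Folr2 and Gas6 from C1q-negative cells, so their estimates are rough.

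Inflammatory genes of the NF-κB group were higher in 5 of 8 tested (Il1b, Cd14, Nfkbia, Ier3 and Zfp36; median log2 fold change 1.15). Il1b, which encodes interleukin-1β, lay at 588 to 1674 CPM in members (median 1153) and at 25.7 to 244 in C1q-positive cells (median 65.7), without overlap (3.61 ± 0.31, adjusted p = 5.16e-07). Cd14, the co-receptor for lipopolysaccharide, rose by 1.6 ± 0.24 and Nfkbia, the inhibitor of NF-κB, by 1.32 ± 0.25. The Nfkbia call was lost at under 0.1% pigment-gene UMIs. That limit was put on the members only and left 2 tumours, Atf4 WT/WT 4 and Atf4 Δ/Δ 4. Calls lost under it cannot be told apart from the effect of fewer tumours. Of the chemokine ligands, 12 were tested, 2 were higher in members and 5 lower. Cxcl2, which attracts neutrophils, was in 167 of the 256 members (65.2%), 61.3% of C1q-positive cells and 1.12% of melanoma cells, and lay at 2117 to 6244 CPM in members (median 3201) and 407 to 2722 in C1q-positive cells (median 1892). It was higher in members in 6 of 6 tumours although the ranges overlapped (1.09 ± 0.22, adjusted p = 0.00145). The Cxcl2 call was lost at under 0.1% pigment-gene UMIs. Ccl8 showed the opposite: it lay at 0 to 94.5 CPM in members of 5 tumours and at 846 in Atf4 WT/WT tumour 1, against 589 to 3514 in C1q-positive cells (-3.85 ± 0.63). Ccl2, which recruits monocytes, did not pass (-0.83 ± 0.35, adjusted p = 0.0952).

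Promoters of Cxcl2 and Nfkbia are shown because both genes rose in members and both windows hold the letters of a κB site. The search for GGG, any 2 bases and TTTCC in a row on both strands of the 300 bases around each RefSeq gene start (250 before, 50 after; GRCm38.p6) found it in 535 of 32851 windows (1.63%). Capitals mark the matches, at 97 and 78 bases before the start of Cxcl2 (chr5:90903649-90903948, plus strand) and, on the opposite strand, at 29 bases before that of Nfkbia (chr12:55492598-55492897, minus strand); a match is not evidence of binding.
Cxcl2: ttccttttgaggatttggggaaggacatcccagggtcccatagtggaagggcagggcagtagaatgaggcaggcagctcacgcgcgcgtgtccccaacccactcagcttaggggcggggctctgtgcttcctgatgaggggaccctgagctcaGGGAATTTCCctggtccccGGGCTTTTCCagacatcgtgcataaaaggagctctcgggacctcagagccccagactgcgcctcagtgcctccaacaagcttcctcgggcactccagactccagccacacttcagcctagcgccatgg
Nfkbia: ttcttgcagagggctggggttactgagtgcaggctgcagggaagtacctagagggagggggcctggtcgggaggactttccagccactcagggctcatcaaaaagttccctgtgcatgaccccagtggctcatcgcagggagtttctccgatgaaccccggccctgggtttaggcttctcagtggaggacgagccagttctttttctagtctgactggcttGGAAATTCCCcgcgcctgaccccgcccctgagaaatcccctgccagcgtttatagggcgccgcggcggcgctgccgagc

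MHC class II genes were higher in members for all 5 tested of 7 listed (median log2 fold change 2.53). Cd74 lay at 2275 to 8336 CPM in members (median 4338) and at 433 to 1500.0 in C1q-positive cells (median 613), without overlap (2.69 ± 0.28, adjusted p = 3.21e-06). H2-Aa, an MHC class II α chain, lay at 846 to 3890 CPM (median 1480) and at 173 to 678 (median 234), with the highest value in Atf4 Δ/Δ tumour 2 (2.53 ± 0.31, adjusted p = 1.46e-05). H2-Ab1, the matching β chain, rose by 2.48 ± 0.34. H2-Aa was found in 33.6% of members, 16.5% of C1q-positive cells and 0.590% of melanoma cells. Dendritic cell markers outside the rule, 0 of 10 of which passed the expression filter, were not tested; their summed level was 264 CPM over all members and 64.3 CPM over C1q-positive cells, and 5 of 162 members and 0 of 289 C1q-positive cells had at least 3 UMIs after thinning. By tumour they lay at 55.3, 205 and 312 CPM in members of Atf4 WT/WT tumours 1, 3 and 4 and at 172, 43.1 and 30.4 CPM in the C1q-positive cells, and in Atf4 Δ/Δ tumours 1, 2 and 4 at 144, 426 and 258 CPM against 132, 37.7 and 88.6. Atf4 WT/WT tumour 1 thus went the other way, and Atf4 Δ/Δ tumour 2 was highest, as it was for class II. Their part in the class II difference was not tested.

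The H2-Aa promoter and that of H2-Eb1, a further β chain chosen after its value was seen (2.66 ± 0.39), each hold the letters CTGATTGG of the Y box of class II promoters. They stand in capitals below, 51 bases before the start of H2-Aa (chr17:34287774-34288073, minus strand) and 62 bases before that of H2-Eb1 (chr17:34305617-34305916, plus strand), and 4.1% of all 32851 windows hold them on either strand.
H2-Aa: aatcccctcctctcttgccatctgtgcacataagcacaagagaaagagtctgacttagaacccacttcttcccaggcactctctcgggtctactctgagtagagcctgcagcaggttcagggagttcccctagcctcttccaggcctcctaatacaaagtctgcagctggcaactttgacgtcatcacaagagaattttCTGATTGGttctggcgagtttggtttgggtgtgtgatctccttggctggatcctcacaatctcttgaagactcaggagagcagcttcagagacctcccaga
H2-Eb1: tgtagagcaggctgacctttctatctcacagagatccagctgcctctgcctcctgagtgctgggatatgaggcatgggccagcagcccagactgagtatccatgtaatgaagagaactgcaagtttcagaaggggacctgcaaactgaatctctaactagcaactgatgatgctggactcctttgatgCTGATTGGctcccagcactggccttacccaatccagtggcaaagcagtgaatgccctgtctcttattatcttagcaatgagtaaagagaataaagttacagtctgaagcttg

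Interferon-induced genes were higher in 4 of 5 tested of 15 listed (median 1.37). Ifitm3, a membrane protein that restricts virus entry, lay at 2918 to 4063 CPM in members (median 3560) and at 479 to 1856 in C1q-positive cells (median 697), without overlap (2.17 ± 0.20, adjusted p = 1.27e-06). Isg15, a ubiquitin-like protein, spread more widely, from 142 to 1164 CPM in members and from 66.7 to 445 in C1q-positive cells (1.44 ± 0.36, adjusted p = 0.00684), and its call was lost without both tumours 4 (1.22, adjusted p = 0.124) and at under 0.1% pigment-gene UMIs (1.58, adjusted p = 0.172). Genes of transcription factors were also among those named. Cebpb, which drives myeloid and emergency granulocyte programmes, rose by 1.59 ± 0.19 (adjusted p = 1.37e-05), Nfil3 by 3.28 ± 0.40, the orphan nuclear receptor gene Nr4a2 by 2.75 ± 0.32 and Junb by 1.44 ± 0.23, while Fos (0.51 ± 0.26, adjusted p = 0.16), Irf8 (0.23 ± 0.31, 0.638) and Atf3 (0.02 ± 0.28, 0.963) did not pass. Cytip, a cytohesin-binding protein of leukocytes, rose by 3.38 ± 0.36. The heat-shock gene Hspa1a rose by 2.77 ± 0.37, but spread from 24.6 CPM in members of Atf4 WT/WT tumour 4 to 1705 in tumour 3. As for Isg15, the calls of Ifitm3, Nfil3, Nr4a2, Junb, Cytip and Hspa1a were lost at under 0.1% pigment-gene UMIs, where only 2 tumours were left.

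**Figure D3:**
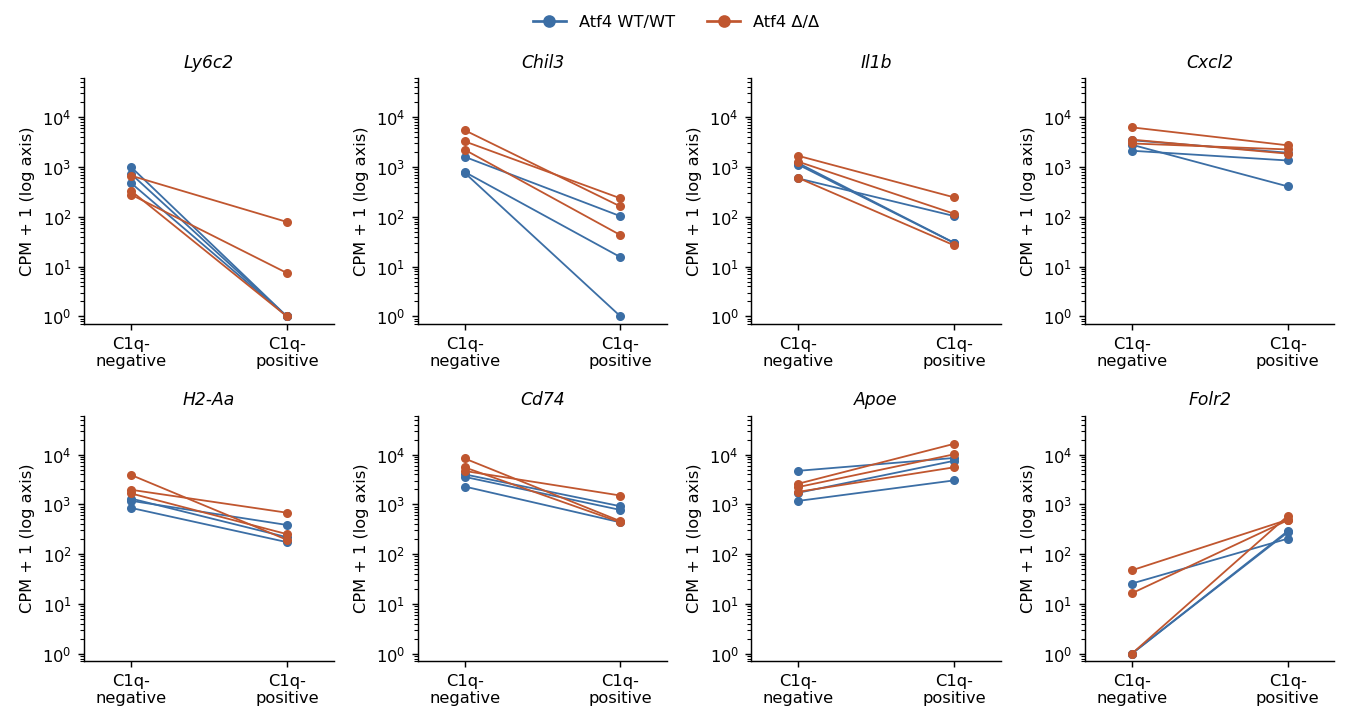
Levels of 8 genes (vertical axis, CPM plus 1 on a log axis) in C1q-negative and C1q-positive myeloid cells of the same tumour, joined by a line for each of 3 Atf4 WT/WT and 3 Atf4 Δ/Δ tumours. Ly6c2, Chil3, Il1b, Cxcl2, H2-Aa and Cd74 were higher in the C1q-negative cells of all 6 tumours, and Apoe and Folr2 lower.

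Macrophage genes fell in members. Of 15 listed, 13 were tested and 11 were lower (median -2.04), with none higher. Folr2, the folate receptor β of resident macrophages, lay at 0 to 46.3 CPM in members (median 7.68) and at 203 to 582 in C1q-positive cells (median 383), without overlap (-4.36 ± 0.42, adjusted p = 1.51e-06). Gas6, a ligand of the Axl and Mertk receptors for dying cells, stood at -4.23 ± 0.51 on the log2 scale, Ms4a7 at -3.16 ± 0.38, Stab1, a scavenger receptor, at -2.89 ± 0.40, and Selenop, a selenium carrier, at -2.59 ± 0.34. Folr2 and Gas6 had 0 to 2 UMIs a tumour in members. They entered the test only through the C1q-positive cells, where they are high, so their fold changes are rough and describe where they were detected. Serpinb6a, Timp2, Fcrls, Pld3, Pmp22 and Rnase4 fell as well, with log2 fold changes of -3.71 to -2.46. Serpinb6a lay at 294 CPM in members of Atf4 WT/WT tumour 3 and at 0 to 47.3 in those of the others. It entered the test mainly through the C1q-positive cells, so its fold change is rough too. Trem2, a lipid-sensing receptor that signals through Tyrobp, averaged 207 ± 118 CPM in members and 907 ± 149 in C1q-positive cells (-2.37 ± 0.26, adjusted p = 5.64e-06). Csf1r and Aif1 did not pass the test (-0.31 ± 0.24 and -0.37 ± 0.35). Macrophage genes were still present: 69.5% of members had at least 3 UMIs of the list, against 99.0% of C1q-positive cells, and Apoe lay at 1170 to 4708 CPM in members (median 2001) and 3021 to 16393 in C1q-positive cells (median 8002).

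Lipid-handling and lysosomal genes fell with them. All 8 lipid genes tested of 10 listed were lower (median -1.79). Apoe fell by 1.78 on the log2 scale and Fabp5, a fatty acid carrier, by 1.12 with 1 high tumour, Atf4 WT/WT 1, at 4443 CPM against 648 to 1796 in the others. Plin2, which coats lipid droplets, passed narrowly (-0.62 ± 0.20, adjusted p = 0.035), and its call was lost in 8 of 17 alternatives, among them DESeq2 and the fits without Atf4 WT/WT tumour 4 or any of Atf4 Δ/Δ tumours 1, 2 and 4. Of 18 lysosomal genes, 17 were tested and 12 were lower (median -0.95). Ctsd, an aspartic protease of lysosomes, lay at 529 to 1799 CPM in members and 4314 to 6108 in C1q-positive cells, without overlap (-2.27 ± 0.19, adjusted p = 4.58e-07). Ctsb fell by 1.66 and Psap, the precursor of saposins, by 0.76. Cell cycle genes were rare: 5 members (1.95%) had at least 3 UMIs of the list against 31.0% of C1q-positive cells, and at 1000 UMIs per cell, over pooled cells, the list was found at this level in 0 of 162 members and 13.5% of C1q-positive cells. The only cell cycle gene tested, Pcna, lay at 0 to 69.1 CPM in members and 148 to 205 in C1q-positive cells (-1.87 ± 0.41, adjusted p = 0.0029). Pcna had 0 to 9 UMIs a tumour in members and entered the test only through the C1q-positive cells, where it is high. Its fold change is therefore rough and describes where it was detected.

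Members varied among themselves in MHC class II and in lipid-handling genes. At least 3 UMIs of lipid genes were found in 132 of the 256, from 35.3% of members in Atf4 WT/WT tumour 2 to 92.9% in tumour 1 (7 tumours). At least 3 UMIs of class II genes were found in 114 of the 256, while 93 had 0 and 74 had 10 or more. Of the members, 95 had both monocyte and class II genes at 3 or more UMIs, 125 only monocyte markers, 19 only class II genes and 17 neither. Thus 83.3% of class II members carried monocyte markers, against 85.9% of all members. Class II genes were carried by 43.2% of monocyte-marker members, against 44.5% of all members. The overlap is near what these shares of all members would give by themselves. By tumour, 50.0%, 41.2%, 46.2% and 37.0% of Atf4 WT/WT members and 37.5%, 75.0% and 47.1% of members of Atf4 Δ/Δ tumours 1, 2 and 4 had class II genes. Tumour 2 of the Atf4 Δ/Δ hosts stood highest. Members with both monocyte and macrophage markers numbered 151.

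The host gene deleted in the study, Atf4 (chromosome 15, 80255184 to 80257541), checks the genotype labels. Members held 2, 5, 6 and 24 Atf4 UMIs in Atf4 WT/WT tumours 1 to 4 and 0, 1, 0 and 6 in Atf4 Δ/Δ tumours. As levels this was 115, 243, 341 and 307 CPM against 0, 45.3 and 45.8 CPM in Atf4 Δ/Δ tumours 1, 2 and 4. The ranges did not overlap, with means of 251 ± 99.7 (SD, n = 4) and 30.3 ± 26.3 (n = 3), a difference of -221 CPM (exact two-sided permutation test, p = 0.0571, the smallest that 4 against 3 tumours allow). With Atf4 Δ/Δ tumour 3 included, the difference was -228 CPM (exact two-sided permutation test, p = 0.0286). At these shares RNA from melanoma cells, which keep Atf4, would give about 4.35 of the 7 UMIs over the 4 Atf4 Δ/Δ tumours and 5.85 of the 37 over the 4 Atf4 WT/WT tumours. The gene lay under edgeR's expression filter; fitted without it, the log2 fold change was -2.44 ± 0.66 (adjusted p = 0.163 over 10506 genes).

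To ask whether loss of host Atf4 changed the number of these cells, their share was compared over tumours. Members made up 0.251%, 0.553%, 0.480% and 2.14% of barcodes within the quality limits in Atf4 WT/WT tumours 1 to 4 and 0.543%, 0.448%, 0.135% and 2.98% in Atf4 Δ/Δ tumours. Tumour 4 stood far above the other 3 in both genotypes, and the genotypes overlapped (0.857% ± 0.867 and 1.03% ± 1.32, SD, n = 4 each; exact two-sided permutation test, p = 0.857). The 95% exact binomial intervals, which cover counting error only, were 1.68% to 2.69% and 2.44% to 3.61% in the 2 tumours numbered 4 and ended at 0.884% or below elsewhere. As a share of barcodes low in pigment genes, members made up 12.7% ± 9.09 and 9.17% ± 8.17 (exact permutation p = 0.457), and as a share of both myeloid classes 52.3% ± 27.4 and 34.3% ± 27.2 (exact permutation p = 0.314; Benjamini-Hochberg adjusted over the 3 shares, 0.686). A fall in members and a rise in other cells cannot be told apart in such shares.

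**Figure D4:**
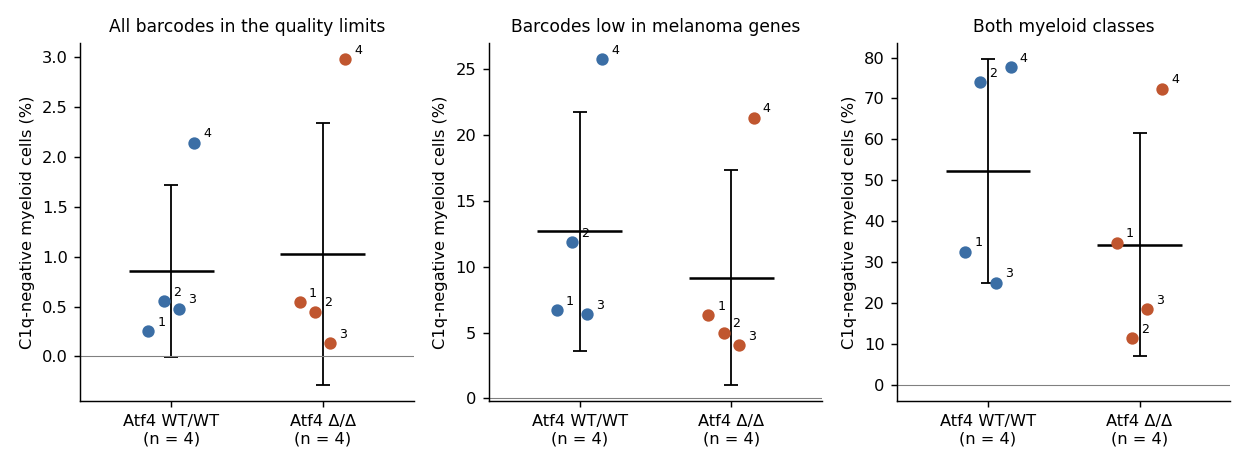
C1q-negative myeloid cells as a percent of 3 denominators (vertical axes) in each tumour; points are tumours with their number, the line is the mean and the bar the SD (n = 4 per genotype). Tumour 4 stands highest in both genotypes for all 3, at 2.14% and 2.98% of all barcodes within the quality limits, and the genotypes overlap.

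Marker shares within the members did not separate the genotypes either. Monocyte markers were carried by 75.1% ± 6.25 of Atf4 WT/WT members (SD, n = 4) and 89.4% ± 7.05 of Atf4 Δ/Δ members (n = 3), which was the smallest p of the 7 lists compared (exact permutation p = 0.114, adjusted 0.8). NF-κB genes were carried by 78.3% ± 5.13 and 87.9% ± 11.2, class II genes by 43.6% ± 5.69 and 53.2% ± 19.5, interferon-induced genes by 74.8% ± 6.13 and 77.9% ± 3.15 and macrophage genes by 71.5% ± 17.0 and 70.02% ± 6.62. No p could go below 0.0571.

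Gene by gene, 1 of 341 genes tested differed between the genotypes in members, 0.293% (edgeR quasi-likelihood test, Benjamini-Hochberg adjusted p under 0.05, 4 against 3 tumours): 23 had an unadjusted p under 0.05 and DESeq2 called 5. The gene was Mt1 (chromosome 8, 94179082 to 94180327), which encodes metallothionein-1, a protein that binds zinc and copper and rises with metals, glucocorticoids and oxidative stress. Mt1 lay at 632, 631, 910.1 and 690.1 CPM in Atf4 WT/WT tumours and at 1574, 2309 and 1816 in Atf4 Δ/Δ tumours 1, 2 and 4. All 3 Atf4 Δ/Δ values were above all 4 controls (716 ± 132 and 1900 ± 374, SD; log2 fold change 1.41 ± 0.22, adjusted p = 0.012). The 5 members of Atf4 Δ/Δ tumour 3, left out, had 0 Mt1 UMIs, which at 6340 UMIs allows a level of up to 473 CPM, and with that tumour in the fit Mt1 no longer passed (1.21, adjusted p = 0.354). Nor did it pass without Atf4 WT/WT tumour 2 (1.36, adjusted p = 0.0719), in members with 0 C1q UMIs (1.35, adjusted p = 0.207) or in barcodes of at least 1000 UMIs (1.56, adjusted p = 0.129). The 0 C1q setting left out Atf4 WT/WT tumour 3, and the 1000-UMI setting Atf4 WT/WT tumour 2 and Atf4 Δ/Δ tumour 1. At under 0.1% pigment-gene UMIs only Atf4 WT/WT tumours 2 and 4 and Atf4 Δ/Δ tumour 4 were left, with a log2 fold change of 1.34. Calls lost in these settings cannot be told apart from the effect of fewer tumours. Melanoma cells carried Mt1 at 1551 ± 278 and 1538 ± 435 CPM in the 2 genotypes (n = 4 each), and their RNA at the shares above would give roughly 99.1 to 274 CPM in control members and 63.1 to 343 in Atf4 Δ/Δ members. C1q-positive cells held 1007 ± 804 and 1218 ± 425 CPM.

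The Mt1 promoter is printed because Mt1 was the gene called. Its window (chr8:94178839-94179138, plus strand, GRCm38.p6) holds the core letters of the metal response element, TGCACNC or TGCGCNC, 3 times on the plus strand, at 23 bases before and 2 and 20 bases after the RefSeq start, in capitals. Either form is found on either strand of 25.7% of the 32851 windows.
Mt1: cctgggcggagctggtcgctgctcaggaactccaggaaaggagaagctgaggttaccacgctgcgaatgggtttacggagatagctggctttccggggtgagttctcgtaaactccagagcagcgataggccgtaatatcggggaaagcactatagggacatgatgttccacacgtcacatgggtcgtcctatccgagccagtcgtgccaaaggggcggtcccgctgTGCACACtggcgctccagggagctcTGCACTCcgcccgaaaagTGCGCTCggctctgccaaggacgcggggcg

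Below the threshold, Chil3 and 3 MHC class II genes had the next smallest p among the genes with positive values, and DESeq2 called Chil3, Cd74 and H2-Aa. Over 20 alternatives Chil3 passed in 12 (adjusted p 0.000226 to 0.372), Cd74 and H2-Aa in 2 each. Chil3 lay at 862, 1213, 739 and 1661 CPM in Atf4 WT/WT members and at 5372, 2173 and 3250 in Atf4 Δ/Δ members (1119 ± 414 and 3598 ± 1628; 1.55 ± 0.32, adjusted p = 0.0798). Its levels did not overlap, in common with 27 of the 341 genes (7.92%), and melanoma cells held almost none of it (0.11 and 0.407 CPM). Cd74 averaged 3236 ± 658 and 6070 ± 1840 CPM, H2-Ab1 1298 ± 298 and 2455 ± 697, and H2-Aa 1059 ± 237 and 2456 ± 1177, each with an adjusted p of 0.174 and without overlap. All 4 class II genes tested had positive log2 fold changes, with a median of 0.88 against -0.03 over all genes tested. Among the 7 tumours fitted, Atf4 Δ/Δ tumour 2 was the highest in each of the 3 named. In the 5 members of Atf4 Δ/Δ tumour 3, left out, H2-Aa lay at 1262 CPM without TMM scaling, below Atf4 WT/WT tumour 4 at 1378. In the same members H2-Ab1 lay at 3785 CPM, above Atf4 Δ/Δ tumour 2 at 3406, and Cd74 lay at 6782. The 7 monocyte genes tested had a median of 0.24, and Ly6c2 was at -0.46 ± 0.40.

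**Figure D5:**
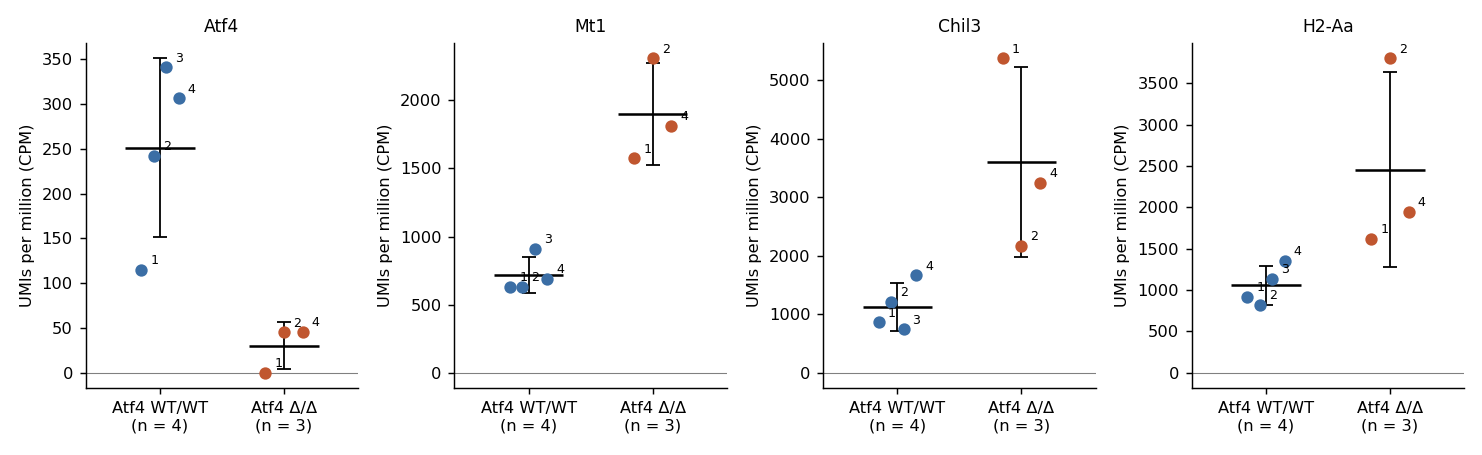
Levels of Atf4, Mt1, Chil3 and H2-Aa in C1q-negative myeloid cells (vertical axes, CPM after TMM normalization) by genotype; points are tumours with their number, the line is the mean and the bar the SD (n = 4 Atf4 WT/WT and 3 Atf4 Δ/Δ). Atf4 lay at 115 to 341 CPM in controls and 0 to 45.8 in Atf4 Δ/Δ tumours; the ranges of the other 3 genes do not overlap either, and Mt1 alone passed the adjusted threshold.

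On the other side, Gm42418 had the smallest p of the genes with negative values. This noncoding transcript overlaps a ribosomal RNA sequence, so its counts are uncertain, and it lay at 6322, 8925, 13026 and 2569 CPM in Atf4 WT/WT members and at 2084, 1901 and 1769.7 in Atf4 Δ/Δ members (-1.98 ± 0.45, adjusted p = 0.102). It passed in 7 of 20 alternatives (adjusted p 2.5e-05 to 0.547). Melanoma cells of the same 7 tumours followed the same order throughout, with 1202, 1693, 1941 and 701 CPM in the controls and 699, 652 and 616 in Atf4 Δ/Δ tumours 1, 2 and 4. Isg15 averaged 751 ± 358 and 289 ± 137 CPM (-1.23 ± 0.45, adjusted p = 0.521), and Npm1, Elob and Txn1 had log2 fold changes of -0.64, -0.78 and -0.69 (adjusted p 0.521, 0.524 and 0.569). Melanoma RNA at the shares above would give roughly 154 to 417 CPM of Npm1 in control members and 119 to 405 in Atf4 Δ/Δ members, 49.3 to 124 and 32.1 to 117 CPM of Elob, and 70.7 to 213 and 60.7 to 207 CPM of Txn1. For Gm42418 it would give 91.3 to 205 and 33.0 to 115 CPM, and for Isg15 at most 16.5. The pigment genes of the rule, given as a description, did not share a direction: Dct averaged 571 ± 130 and 257 ± 65.1 CPM, Pmel 132 ± 64.6 and 256 ± 172, Mlana 214 ± 117 and 204 ± 104, Tyr 20.8 ± 27.3 and 30.3 ± 26.3, and Tyrp1 283 ± 184 and 274 ± 118. The part of this RNA in the differences was not tested.

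Known targets of ATF4, the transcription factor of the integrated stress response that induces amino acid synthesis and transport genes, were compared mainly as a sum, since single genes lay under the expression filter. Of 28 listed, 26 were seen in members, with 1168 UMIs in all, but Cebpb alone passed the expression filter in the comparison of genotypes (1111 ± 277 and 1480 ± 385 CPM, log2 fold change 0.45 ± 0.24, adjusted p = 0.634). Their summed level was 2874, 4016, 3027 and 3952 CPM in Atf4 WT/WT members and 4412, 3595, 2524 and 3813 in Atf4 Δ/Δ members, with overlap. Cebpb gave 425 of the 1168 UMIs, so the sum says little of the rest. Among genes named after their values were seen, with 0 to 12 UMIs a tumour and no test, the amino acid and one-carbon enzymes Phgdh (57.6 ± 41.8 and 7.63 ± 13.2 CPM), Mthfd2 (59.9 ± 11.9 and 30.3 ± 26.3), Asns (45.5 ± 32.6 and 20.2 ± 23.0) and Psat1 (40.9 ± 54.5 and 25.6 ± 23.5) and the stress gene Ddit3 (142 ± 110 and 38.3 ± 35.02) had lower means in Atf4 Δ/Δ members, while Ddit4 (23.95 ± 28.7 and 91.2 ± 44.7) and Nupr1 (102 ± 34.8 and 148 ± 104.6) had higher ones. These picks do not stand for the list, in which higher and lower means were about equally frequent. Among the others, Sars (91.8 and 132 CPM) and Eif4ebp1 (161 and 214) had higher means in Atf4 Δ/Δ members. Gars (137 and 86.5) and Aars (91.8 and 38.2) had lower ones. Melanoma cells carried the summed list at 4247 CPM.

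Whether the genotype difference was the same in members and C1q-positive cells was tested as an interaction in the 6 tumours that enter the comparison of the classes. None of 1585 genes passed (edgeR, Benjamini-Hochberg), 51 had an unadjusted p under 0.05 and DESeq2 called 0. Without Atf4 Δ/Δ tumour 4 there were 2 calls, Spp1 lower and Cd74 higher, both named after their values were seen. A count of 0 does not show that the classes responded alike.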

How the data were processed

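Single-cell libraries of 8 tumours were read from deposited count matrices of UMIs per gene and barcode, which the authors made with Cell Ranger 3.1.0 on GRCm 38 and analysed with Seurat 3.2.1 per the labels' processing notes. Per the labels the kit was version V3; the study's methods name another, and likewise another age range. The authors' own cell labels were not used here. Members and gene lists were chosen with earlier results of these data known. No doublet caller was run.

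UMIs were summed per tumour, with at least 10 cells, and fitted with edgeR 4.0.16 (R 4.3.3; filterByExpr, TMM, glmQLFit and glmQLFTest, Benjamini-Hochberg, adjusted p under 0.05), without a block for the genotype and with tumour as a block for the classes. CPM are TMM-scaled, except summed list levels and melanoma-RNA levels. The library size was changed from the genes tested to all genes after the first fits were seen. DESeq2 1.42.0 was an alternative. Shares were compared by exact two-sided permutation (scipy 1.17.1) with 95% Clopper-Pearson intervals. Beyond the sample titles and the labelled sex, nothing in the labels says how replicates differ, so p-values measure the spread between these tumours. Named genes were Atf4, for the genotype the calls or else the 5 smallest p on each side, and for the classes the 12 largest differences on each side with the same sign in every tumour and the 3 highest-expressed genes of each list. The share of melanoma RNA was estimated from 10 melanoma genes outside the rule. Gene positions are from GENCODE on GRCm38. The edgeR step of the genotype and class fits was also run on simulated counts, with levels and 1 common dispersion taken from the finished fits. It recovered 62.5% of 2-fold and 99.1% of 4-fold changes for the genotype, and 55.8% and 97.2% for the classes. The permutation tests and the interaction were not simulated. Alternatives are given in the closing section.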

Additional observations from a re-analysis of the deposited data

Results flagged for a closer look

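In 144 groups of tumours, 18 had a highest or lowest tumour set far apart from the rest. Some groups are set apart by chance alone, and the groups share tumours. Members as a share of all barcodes within the quality limits stood apart in tumour 4 of both genotypes, at 2.98% in Atf4 Δ/Δ (others 0.135% to 0.543%) and 2.14% in Atf4 WT/WT (others 0.251% to 0.553%). As a share of barcodes low in pigment genes, Atf4 Δ/Δ tumour 4 stood apart at 21.3% (others 4.03% to 6.32%). Neutrophil markers were carried by 5.88% of members in Atf4 WT/WT tumour 2, which is 1 cell of 17, and by 0 in the other 3 controls, and Txn1 lay at 1601 CPM in the same tumour.

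Atf4 Δ/Δ tumour 4 stood apart in its C1q-positive cells for 6 genes. Ly6c2 lay at 77.8 CPM (others 0 to 6.43), Vcan at 77.8 (others 0 to 17.1), Thbs1 at 433 (others 57.1 to 173), H2-Ab1 at 744 (others 145 to 348) and Ifitm3 at 1856 (others 479 to 823), all high, while Trem2 was low at 633 CPM (others 895 to 1050.0). In its members Cxcl2 lay at 6244 CPM (others 2117 to 3544). These are genes that separate the classes, and how far the C1q limit divides the cells of this tumour was not tested.

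Members of Atf4 WT/WT tumour 1 stood apart for Ccl8 (846 CPM, others 0 to 94.5), Fabp5 (4443, others 648 to 1796) and Rsad2 (1270.0, others 0 to 324), those of Atf4 Δ/Δ tumour 2 for Cytip (972, others 294 to 476) and H2-Aa (3890.0, others 846 to 1958), and those of Atf4 WT/WT tumour 3 for Serpinb6a (294, others 0 to 47.3).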

How the results depend on the processing

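Of 1190 single-gene values under an alternative, 1097 had the same direction and side of the threshold as reported, 41 passed it newly, 31 no longer passed and 21 changed sign; of 271 values that answer a comparison, 222 were the same. The cause was not tested for any change below.

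The genotype counts in members (1 higher, 0 lower) became 4 and 1 with DESeq2, 3 and 8 without the expression filter, 6 and 2 with under 0.1% pigment-gene UMIs (3 tumours), 5 and 3 without both tumours 4, 2 and 1 with the replicate block and 1 and 1 with all 8 tumours. The count higher was 2 without barcodes with neutrophil markers, with the sex of the labels as covariate or with library size from the genes tested, and 0 in members with 0 C1q UMIs; the labelled sex goes against the data in all 4 controls, so that fit does not test dependence on sex. Leaving out 1 tumour in turn gave 0 to 3 higher and 0 to 1 lower. Isg15 turned to 0.054 at under 0.1% pigment genes. Mt1 had log2 fold changes of 1.21 to 1.595 and adjusted p from 0.00417 to 0.354 over 20 alternatives and passed in 15. The block used tumour numbers, which share only a number: correlations of same-numbered tumours were 0.19, 0.06 and -0.03. The Atf4 difference was -228 CPM with all 8 tumours and -269 to -192 when 1 was left out.

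The class counts (152 higher, 134 lower) became 277 lower without the filter, where 34.8% of calls were higher against 53.1% and the median of the genes tested moved to -0.25, 91 higher at 1000 UMIs or more, 23 and 28 at under 0.1% pigment genes (2 tumours) and 60 and 58 without both tumours 4. Leaving out 1 tumour gave 106 to 174 higher and 106 to 161 lower. Of the 45 called genes named for the classes, 27 kept their call in every alternative. Besides Isg15 and Plin2, Ifitm3, Cxcl2, Nfkbia, Junb, Cytip, Nfil3, Hspa1a and Nr4a2 lost it, only at under 0.1% pigment genes. So did Fcrls, Stab1, Pld3, Pmp22, Rnase4, Psap, Fabp5 and Pcna. Sign changes touched only genes that were not called. Without the filter Bst2 was -0.25, Irf8 -0.023, Xist -0.28, Gapdh -0.052 and Atf3 -0.22. Bst2 was -0.39 in members with 0 C1q UMIs, -0.024 at a mitochondrial limit of 15%, -0.22 at under 0.1% pigment genes, -0.13 with all 8 tumours and -0.25 without the immunoglobulin barcode. At 1000 UMIs or more Ldha was 0.015 and Atf3 -0.037, and Atf3 was -0.64 at under 0.1% pigment genes. When 1 tumour was left out, Bst2 ranged from -0.23 to 0.22, Irf8 from -0.18 to 0.43 and Atf3 from -0.26 to 0.37. The interaction gave 0 to 1 gene on each side with 1 tumour left out and 1 lower without both tumours 4; it had no value at under 0.1% pigment genes.

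Differences in share (Atf4 Δ/Δ minus Atf4 WT/WT, percentage points) changed sign as follows. With 1 tumour left out, all barcodes within the quality limits ranged from -0.481 to 0.599 and low-pigment barcodes from -7.58 to 0.840. Likewise neutrophil markers ranged from -1.47 to 0.654, macrophage markers from -7.43 to 5.57, hypoxia genes from -5.38 to 2.53 and class II genes from -1.3 to 17.5. At 1000 UMIs or more, low-pigment barcodes were 0.0284, neutrophil 1.299 and macrophage markers 8.66. Thinned to 1000 UMIs, neutrophil was 0.649 and macrophage 8.71. At 1 UMI, they were 3.68 and 4.05. Hypoxia genes were 0.185 with the replicate block. Alternatives with library size from the genes tested, without the immunoglobulin barcode and without both tumours 4 were chosen after seeing the data.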

Other observations

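Immediate early genes, which answer stimuli within minutes, and a list of Fc, Trem and lectin receptors with Syk and Ptpn6 were compared between the classes with edgeR (Benjamini-Hochberg). Of the immediate early genes, 3 of 9 tested were higher (Junb and, named after their values were seen, Jund and Btg2), against 13.5% of all genes tested. Of the 16 genes of the second list, which also holds the inhibitory receptor gene Fcgr2b, 7 were tested, of which Trem2 was lower and none higher, about the 11.9% of all genes tested that were lower; the median was 0.06.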
